A study of Homo sapiens with 12 samples.

Results

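The proteasome inhibitor bortezomib (BTZ) was compared with its DMSO vehicle in prostate cancer cells on 4 bead arrays. These held 2 replicate samples treated with 50 nM BTZ and 2 given DMSO, of 10 replicate samples (12 arrays) in the whole series. The members were chosen by sample title, and all genes that passed the detection filter were compared. The labels name the cells as LNCaP prostate adenocarcinoma cells, and the methods describe them as LNCaP-S14, a line made from LNCaP by stable overexpression of SKP2, the F-box subunit of a ubiquitin ligase. The DMSO controls carry that transgene as well, and the line was treated for 24 h according to the methods. The other groups were SMIP004 at 40 µM, camptothecin (CPT), a topoisomerase I poison, at 500 nM and roscovitine, a CDK inhibitor, at 20 µM. They entered the same model, and CPT was set beside BTZ because both were hybridized on slide 2, whereas DMSO lay on slide 1. An effect of BTZ against DMSO and a difference between the slides cannot be told apart, so counts for groups of genes are given against DMSO and, within slide 2, against CPT. Both comparisons use the same BTZ samples. No vehicle control lay on slide 2. CPT is an active drug, so a difference between BTZ and CPT mixes the effects of both drugs.

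The proteasome is the chamber in which cells break down proteins tagged with ubiquitin. Its 20S core carries the proteolytic sites, of which PSMB5 holds the one that BTZ blocks, and the 19S particle on its ends binds ubiquitin chains, removes them and unfolds the substrate. Cells whose proteasome is blocked accumulate misfolded proteins, and several transcription factors are known to respond: NFE2L1 (NRF1), which drives the proteasome genes, the heat shock factors, which drive the cytosolic chaperones, the unfolded protein response of the endoplasmic reticulum (ER) with ATF4 and CHOP, and NFE2L2 (NRF2), which drives antioxidant genes. BTZ is used in the clinic against multiple myeloma.

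BTZ-treated cells differed from DMSO-treated cells in most of the transcripts measured. Of 8783 genes tested, 2787 (31.7%) were higher and 2877 (32.8%) lower with BTZ (limma on normalized log2 intensities, Benjamini-Hochberg adjusted p under 0.05). Against CPT, 2882 genes (32.8%) were higher and 2875 (32.7%) lower with BTZ. The changes were large: 83 genes rose and 79 fell at least 8-fold against DMSO. The 2 BTZ samples did not overlap the 2 DMSO samples in 87.6% of the genes, which is the background for the statements on overlap below. The median log2 change over all genes was -0.01. It was -0.18 where intensities were scaled to 1 median per array, without background correction and quantile normalization, and 37.9% of the called genes were then higher, against 49.2%. Mean intensity per array ran from 473 to 802 over the series. The BTZ samples had 8927 and 8737 probes detected and the DMSO samples 9799 and 9339. The difference between the 2 samples of a group had a standard deviation over genes of 0.21 (log2) for BTZ and 0.20 for DMSO. It was 0.77 for roscovitine, and the spread between the roscovitine samples enters the errors of every gene in the model. All values given per sample are normalized log2 intensities, changes are log2 changes with their standard error (SE, n = 2 samples per group), and a gene counts as detected at a detection p under 0.01. The labels do not say whether the 2 samples of a group were separate cultures. The p-values rest on the spread between samples within groups, pooled over all groups of the model and moderated across genes. They cover no spread beyond these samples.

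Prostate markers were present in the DMSO samples. Of 12 markers of LNCaP cells, 10 could be read and 9 were detected on both DMSO arrays. The androgen receptor gene itself was not analysed here, and the probe for KRT18, a luminal keratin, was detected on no DMSO or BTZ array. Of 35 markers of neuroendocrine, basal, fibroblast, leukocyte and endothelial cells that could be read, 32 were not detected on both DMSO arrays and 30 not on both BTZ arrays. Their summed raw intensity was 3842 and 4328 in the DMSO samples and 5026 and 4413 in the BTZ samples. Among them, COL1A1, CD14 and CD68 passed the test, with COL1A1 at least 1.95-fold and CD14 at least 2.42-fold higher with BTZ. Their part in the results was not tested.

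All proteasome core and regulatory subunit genes that were measured rose with BTZ. All 13 measured genes of the 20S core were higher than with DMSO, with a median log2 change of 0.87, and all 13 were also higher than with CPT. The 16 measured genes of the 19S particle were all higher than with DMSO, with a median of 1.72, and 15 of them were higher than with CPT. PSMD12, a lid subunit, read 13.96 and 14.09 with BTZ against 11.33 and 11.37 with DMSO, and 11.48 and 11.54 with CPT. Its change of 2.67 (SE 0.15, adjusted p = 7.28e-06) was 6.37-fold. PSMC4, an ATPase of the 19S base, read 12.19 and 12.03 against 9.42 and 9.40 (log2 change 2.70, SE 0.21). PSMB7, which carries the trypsin-like site of the core, showed the largest change of the 20S list, at 14.17 and 14.33 with BTZ, 12.49 and 12.30 with DMSO and 11.73 and 11.83 with CPT. PSMB5, the target of BTZ, read 13.05 and 13.01 against 12.19 and 12.15, a change of 0.86 (SE 0.14) or 1.81-fold. PSMD14, the deubiquitinase of the lid, rose by 1.55 (SE 0.18). In each of these genes the BTZ samples lay above both other groups. The smallest changes were those of PSMA4 (0.43) and PSMB1 (0.36), whose calls were lost in 3 and 5 of the fits that left out 1 sample. ADRM1, the ubiquitin receptor, was higher than with DMSO (1.22) but stood at 13.42 and 13.11 with BTZ against 13.05 and 13.37 with CPT.

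**Figure D1:**
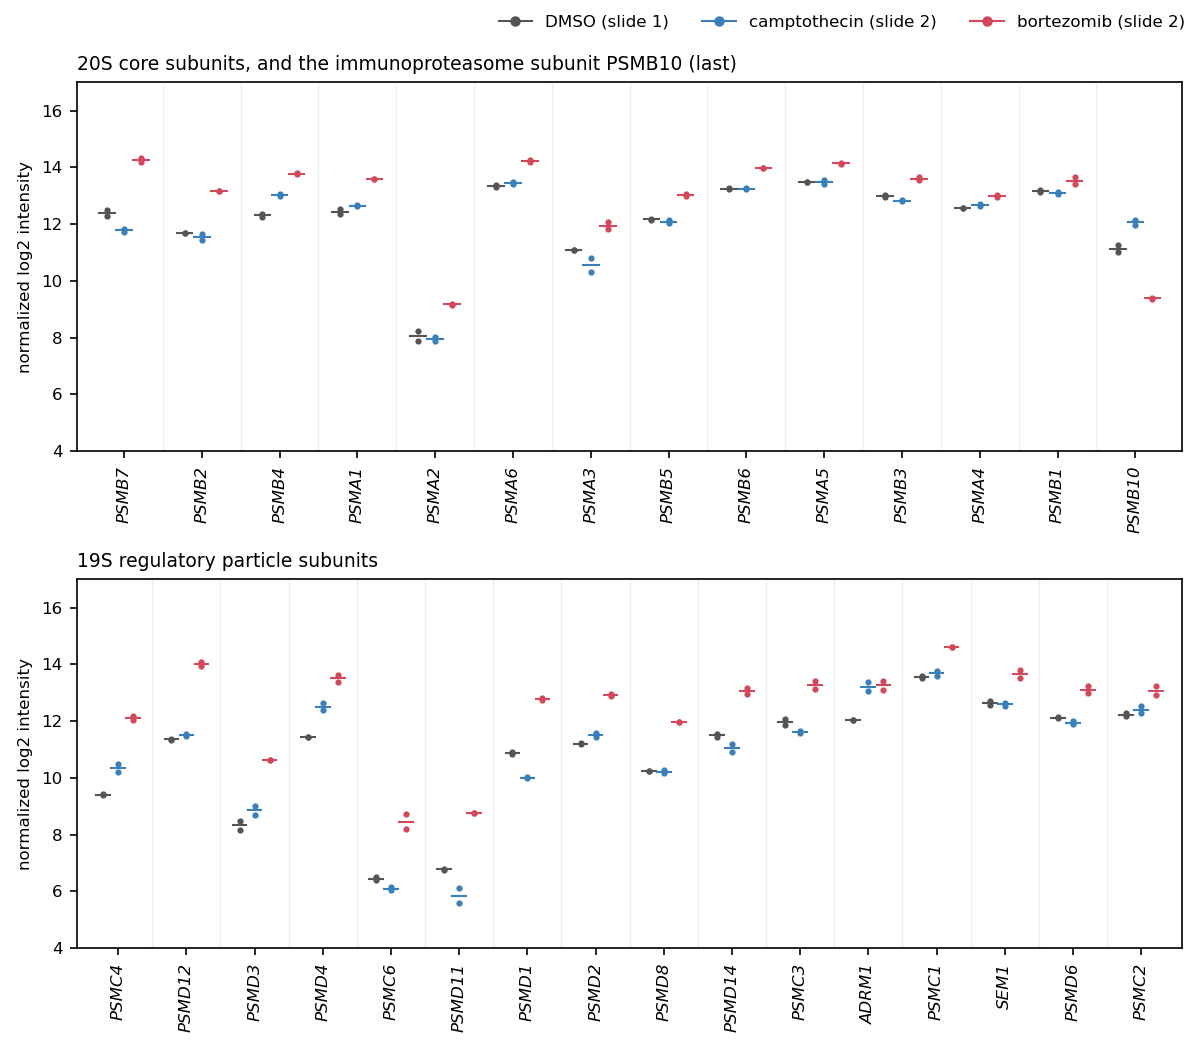
Normalized log2 intensity (vertical axis) of the measured 20S core genes and PSMB10 (upper panel) and of the 19S genes (lower panel). Points are the 2 samples of each group and bars their mean, and in every 20S and 19S gene both BTZ samples lie above both DMSO samples, whereas PSMB10 lies below.

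Of the 3 inducible core subunits of the immunoproteasome, only PSMB10 passed the detection filter, and it fell. PSMB10, which replaces PSMB7, read 9.39 and 9.38 with BTZ against 11.26 and 11.02 with DMSO and 12.15 and 11.98 with CPT (log2 change against DMSO -1.76, SE 0.15). PSME1 and PSME2, the subunits of the interferon-inducible PA28 activator, fell by 1.06 and 1.20. PSME4, the activator PA200, rose by 1.08. Over all genes tested, 31.7% were higher and 32.8% lower than with DMSO. Near these shares, 5 of the 14 measured assembly factors and activators rose and 4 fell against DMSO, and 6 were above and 3 below CPT. By far the largest rise among them was that of ZFAND2A, an arsenite-inducible adaptor of the 19S particle, at 12.98 and 12.92 with BTZ, 8.29 and 8.15 with DMSO and 9.23 and 9.02 with CPT. This was 26.5-fold over DMSO (log2 change 4.73, SE 0.21).

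Of 5 measured genes listed as controlling proteasome expression, 4 rose and 1 fell against DMSO, and 3 were above and none below CPT. NFE2L3, which the list did not hold, was at least 8.16-fold lower than with DMSO. It read 6.45 and 6.63, undetected, with BTZ against 8.36 and 8.05 with CPT. NFE2L1 read 10.16 and 10.49 with BTZ against 9.24 and 8.98 with DMSO (log2 change 1.21, SE 0.17) but 10.24 and 10.34 with CPT, a difference of 0.04 (adjusted p = 0.852). NFE2L2 rose by 1.29 and lay 1.60 above CPT. MAFG, a small MAF protein that pairs with both factors, rose by 2.68, while its relative MAFF fell by 1.13. NGLY1, the glycanase that NFE2L1 needs for its activation, rose by 0.90 (SE 0.25), a call that was lost without DMSO replicate 1 or BTZ replicate 1.

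NFE2L1 and NFE2L2 are known to bind the antioxidant response element, so the promoters of the proteasome genes were searched for its core, TGACNNNGC, on both strands. Promoter windows of 300 bases, 250 before to 50 after the transcription start, came from RefSeq (GRCh38.p14) and were at hand for 7347 of the tested genes. Of these, 15.7% held a match, compared with 5 of the 15 promoters of 19S genes (33.3%) and 1 of the 10 of 20S genes. The core was also in 7 of 32 promoters of mitosis genes (21.9%), most of which fell against DMSO. The promoters shown are those of the 2 largest rises of the 19S list with a window, and each held 1 match, in capitals. That of PSMD12 begins at position -165 from the start site, and that of PSMC4, on the opposite strand, at position 28 inside the transcript.
PSMC4 (chr19:39970915-39971214, plus strand): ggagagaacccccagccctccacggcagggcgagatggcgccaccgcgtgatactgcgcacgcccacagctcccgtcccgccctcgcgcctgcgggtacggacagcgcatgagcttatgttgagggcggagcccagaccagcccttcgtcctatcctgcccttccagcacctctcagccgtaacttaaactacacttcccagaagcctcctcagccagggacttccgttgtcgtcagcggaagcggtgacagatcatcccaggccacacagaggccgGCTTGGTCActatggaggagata
PSMD12 (chr17:67366528-67366827, minus strand): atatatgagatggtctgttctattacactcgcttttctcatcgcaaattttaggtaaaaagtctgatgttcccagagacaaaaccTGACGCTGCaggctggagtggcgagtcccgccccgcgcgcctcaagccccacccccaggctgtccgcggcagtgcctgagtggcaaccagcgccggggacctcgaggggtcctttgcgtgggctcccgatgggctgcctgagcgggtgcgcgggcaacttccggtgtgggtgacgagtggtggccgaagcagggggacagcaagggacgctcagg
A match is a description of the letters in this window.

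Ubiquitin and the factors that carry ubiquitylated proteins to the proteasome rose with the subunits. Of 16 measured genes, 12 were higher and 2 lower than with DMSO (median 1.22), and 12 were higher and 1 lower than with CPT. NPLOC4 and UFD1, the cofactors that hand substrates to the segregase VCP, rose by 2.49 and 2.16, and VCP itself by 1.71. SQSTM1 (p62), which gathers ubiquitylated proteins into aggregates for autophagy, read 11.41 and 11.41 with BTZ against 9.22 and 9.09 with DMSO and 9.59 and 9.39 with CPT (log2 change 2.25, SE 0.13). UBB, a polyubiquitin gene that was already bright, reached 15.43 and 15.70 from 14.25 and 14.22, which is 2.52-fold. The ubiquilins split. UBQLN1, a shuttle factor, rose by 2.39, while UBQLN2 and UBQLN4 fell by 1.19 and 1.18. FAF1, another VCP cofactor, rose by 1.10 against DMSO and was detected on no CPT array, where its samples were at 5.68 and 5.73. Of 17 activating and conjugating enzymes, 3 were higher and 7 lower than with DMSO, and 4 lower when any 1 of the DMSO or BTZ samples was left out. Against CPT the balance of counts was the reverse, with 8 higher and 3 lower. The median log2 change was positive in both comparisons, 0.16 against DMSO and 0.40 against CPT. UBE2H rose by 2.43 (SE 0.46), and UBE2C, which works with the anaphase-promoting complex, fell by 4.71 (SE 0.68), from 12.33 and 12.05 to 7.51 and 7.47. A further probe of UBE2C changed by -1.73 and a further probe of UBE2H by 0.99.

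Cytosolic heat shock genes were among the strongest responses. The small heat shock protein CRYAB, which holds unfolded proteins in solution, was detected on neither DMSO array, where it read 4.87 and 4.91, and stood at 13.12 and 13.10 with BTZ. It was at least 100-fold higher (adjusted p = 1.04e-06), and at 10.14 and 10.38 with CPT it lay below BTZ by 2.85. HSPB8, which works with BAG3 in the disposal of misfolded proteins, was at least 6.69-fold higher, and BAG3 read 14.63 and 14.94 with BTZ against 10.75 and 10.52 with DMSO and 11.76 and 11.80 with CPT (log2 change 4.15, SE 0.22). HSPB1 (HSP27) rose by 1.26. Of 4 measured small heat shock genes, 3 rose against DMSO, and 3 were above and 1 below CPT.

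Of the HSP70 and HSP110 genes, 7 of 9 rose against DMSO (median 1.25), and 8 of 9 were above CPT. HSPA1B, the inducible HSP70, whose sequence is nearly identical to that of HSPA1A so that the probe may read both, showed 15.54 and 15.13 with BTZ, 12.93 and 13.03 with DMSO and 14.12 and 14.02 with CPT. HSPH1 (HSP105), a nucleotide exchange factor, rose 5.40-fold, to 14.11 and 14.06, and HSPA4L by 2.87 (SE 0.35). Even HSPA8, the constitutive HSC70 and one of the brightest transcripts, rose by 0.91 (SE 0.14). The HSP40 partners, which bring substrates to HSP70, rose in 10 of 15 cases (median 1.61, and 1.20 with genes not detected in a group set to their bound), and 10 were above and 2 below CPT. DNAJB4 was at least 12.9-fold higher, and DNAJB1 read 13.51 and 13.25 against 10.13 and 10.05 (log2 change 3.29, SE 0.17). DNAJC9, a histone chaperone with a J domain, was the exception and fell by 1.68.

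HSP90 and its partners moved less. Of 13 genes, 8 rose and 3 fell against DMSO, and 4 to 5 rose when any 1 of the DMSO or BTZ samples was left out. Against CPT 9 were higher and 1 lower. HSP90AB1 rose by 1.83 (SE 0.13) and STIP1, which links HSP70 to HSP90, by 1.69. STUB1 (CHIP), the ubiquitin ligase that acts on chaperone clients, fell by 1.64 (SE 0.16). In the CCT chaperonin and prefoldin, which fold actin and tubulin, 8 of 13 genes rose and none fell against DMSO, and 9 were above and 1 below CPT, with changes against DMSO of 1.35 for PFDN1 and 1.04 for CCT2. TCP1, a CCT subunit, showed 11.76 and 11.57 with BTZ against 11.03 and 11.33 with DMSO and did not pass. Of 10 mitochondrial chaperones and proteases, 4 were higher and 5 lower than with DMSO, and 3 higher and 2 to 3 lower when any 1 of the DMSO or BTZ samples was left out. Against CPT 7 were higher and none lower (median 0.65). The protease subunit CLPX rose by 1.64 and HSPA9 (mortalin) by 1.14, and AFG3L2, a protease of the inner membrane, fell by 1.07.

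The heat shock element was searched as the paired repeat GAANNTTC or TTCNNGAA. It was found in 8 of 37 promoters of cytosolic heat shock genes (21.6%), in 10.4% of the promoters of tested genes and in 6 of 32 promoters of mitosis genes (18.8%). The promoter of HSPB8, with 2 matches at positions -88 and 5, is shown as the small heat shock gene with the largest bound that has a window. HSPA8 and DNAJA1 held 4 and 3 matches. The promoter of DNAJB4, whose bound was larger than that of HSPB8, held none. The promoters of BAG3, DNAJB1, HSPH1 and HSPA4L, which also rose, held none either.
HSPB8 (chr12:119178681-119178980, plus strand): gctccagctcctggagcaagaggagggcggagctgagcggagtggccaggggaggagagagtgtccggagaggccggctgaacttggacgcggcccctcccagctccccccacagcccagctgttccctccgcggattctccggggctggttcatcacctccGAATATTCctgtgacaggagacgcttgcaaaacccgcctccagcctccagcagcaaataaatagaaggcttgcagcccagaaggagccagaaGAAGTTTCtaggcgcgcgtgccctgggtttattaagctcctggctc
The capitals mark both matches.

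**Figure D2:**
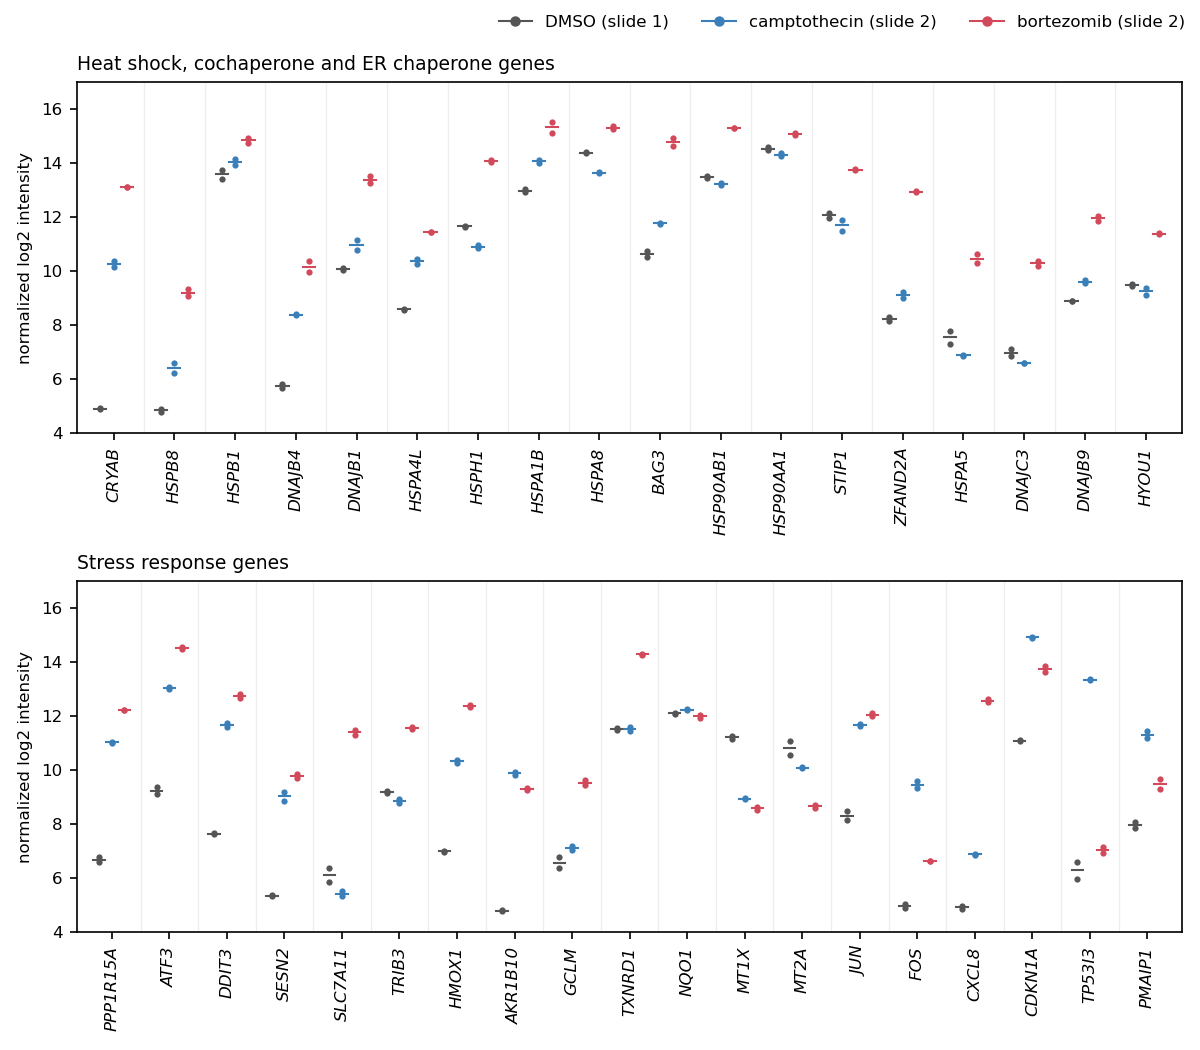
Normalized log2 intensity (vertical axis) of chaperone genes (upper panel) and stress response genes (lower panel), with the 2 samples of each group as points and their mean as a bar. CRYAB went from 4.87 and 4.91 with DMSO to 13.12 and 13.10 with BTZ, and TP53I3 is high with CPT and low with BTZ.

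Chaperones of the ER rose too, and this group stood above CPT throughout. Of 18 measured genes, 14 were higher and 1 lower than with DMSO (median 0.94), and all 18 were higher than with CPT (median 1.64). HSPA5 (BiP), the main chaperone of the ER lumen and sensor of its load, read 10.64 and 10.29 with BTZ, 7.30 and 7.79 with DMSO and 6.87 and 6.87 with CPT. This was 7.56-fold over DMSO (log2 change 2.92, SE 0.18). DNAJC3 (p58IPK), which restrains the kinase PERK, rose by 3.31, and DNAJB9 (ERdj4), a cochaperone of BiP, by 3.06. HYOU1 (GRP170) reached 11.40 and 11.36 from 9.44 and 9.50. SIL1, an exchange factor of BiP, was lower than with DMSO by 0.48 and higher than with CPT by 1.03, and its call against DMSO was lost without any 1 of the DMSO or BTZ samples. Of the genes of ER-associated degradation, which moves misfolded proteins to the cytosol, 6 of 15 rose and 4 fell against DMSO. These counts lie near the shares over all genes tested, 31.7% higher and 32.8% lower. The list median was 0.34, and 0.05 under median scaling. Against CPT 7 were above and 2 below. SELENOK, an ER selenoprotein, rose by 2.37, the lectin OS9 was at least 2.68-fold higher, and EDEM3, a mannosidase, fell by 0.88.

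Of 25 measured targets of ATF4 and CHOP, the factors of the integrated stress response, 16 rose and 1 fell against DMSO (median 0.91, with bounds 0.82), and 13 were above and 1 below CPT. PPP1R15A (GADD34), the phosphatase subunit that restores translation, was the largest rise among genes detected in all 4 samples, at 12.24 and 12.24 with BTZ against 6.59 and 6.77 with DMSO. The DMSO values lay near the lowest detected values of their arrays, 6.35 and 6.58. Deposited intensities, without background correction, were 147.7 and 192.4 with DMSO and 5178.6 and 4043.7 with BTZ. The 47.3-fold rise (log2 change 5.56, SE 0.68, adjusted p = 0.000222) stood beside 11.05 and 11.00 with CPT, from which BTZ differed by 1.22 (adjusted p = 0.148). The same held for DDIT3, the gene of CHOP, at 12.68 and 12.84 with BTZ and 7.64 and 7.65 with DMSO. With CPT it read 11.59 and 11.75, a difference of 1.09 (adjusted p = 0.18). The roscovitine samples, at 6.59 and 9.26 for PPP1R15A and 7.82 and 10.42 for DDIT3, widen the errors of both genes. ATF3, a factor of the same pathway, read 14.57 and 14.47 with BTZ against 9.36 and 9.11 with DMSO, and lay 1.48 above CPT (adjusted p = 0.0375). The amino acid transporters differed. SLC7A11, the cystine importer xCT, read 11.49 and 11.31 with BTZ, 6.36 and 5.85 with DMSO and 5.50 and 5.32, undetected, with CPT, while its heavy chain SLC3A2, at 10.82 and 10.68 with BTZ and 6.78 and 6.57 with DMSO, was at 10.41 and 10.72 with CPT. TRIB3, a pseudokinase induced by CHOP, rose by 2.36 and lay 2.70 above CPT, whereas SESN2, at least 9.83-fold higher than with DMSO, was within 0.74 of CPT (adjusted p = 0.276). ATF4 mRNA itself rose by 0.40 (SE 0.12), a call that was lost without either DMSO sample or BTZ replicate 1. The serine synthesis gene PSAT1 fell by 0.65.

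Aminoacyl-tRNA synthetases, many of which are ATF4 targets, rose in 11 of 18 cases and fell in 1 against DMSO, and 14 were above and 1 below CPT. HARS1 rose by 1.55 and CARS1 by 1.47, and QARS1 fell by 0.63. Of 37 translation initiation and elongation factors, 20 rose and 5 fell (median 0.51), and under median scaling 14 rose and 6 fell. Against CPT 22 were higher and 2 lower. EIF5, which helps the ribosome select the start codon, rose by 2.17 (SE 0.16), and the helicase EIF4A2 by 1.78. The cap-binding protein gene EIF4E went the other way, from 8.26 and 8.26 to 7.14 and 6.97.

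CHOP with an ATF partner is known to bind the composite element TGATGNAA, and ATF factors the cyclic AMP response element TGACGTCA. The composite element was in 4 of 19 promoters of this list (21.1%) and in 1.69% of those of tested genes, and the cyclic AMP response element in 1 of 19 (5.26%) and in 3.65%. The promoters of PPP1R15A and ATF3 are shown as the largest rises of the list with a window at hand. PPP1R15A held a cyclic AMP response element at position -58 and no composite element, and ATF3 a composite element at position -191, both in capitals. PPP1R15A also held 2 matches to the antioxidant core, at -179 and -152, left in lower case, and no matches overlapped.
PPP1R15A (chr19:48872171-48872470, plus strand): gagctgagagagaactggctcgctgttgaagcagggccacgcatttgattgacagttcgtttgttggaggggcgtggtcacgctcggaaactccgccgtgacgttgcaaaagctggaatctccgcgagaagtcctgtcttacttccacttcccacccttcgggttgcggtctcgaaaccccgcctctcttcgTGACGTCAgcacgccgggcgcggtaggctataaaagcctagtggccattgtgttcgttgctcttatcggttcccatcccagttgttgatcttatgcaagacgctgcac
ATF3 (chr1:212565157-212565456, plus strand): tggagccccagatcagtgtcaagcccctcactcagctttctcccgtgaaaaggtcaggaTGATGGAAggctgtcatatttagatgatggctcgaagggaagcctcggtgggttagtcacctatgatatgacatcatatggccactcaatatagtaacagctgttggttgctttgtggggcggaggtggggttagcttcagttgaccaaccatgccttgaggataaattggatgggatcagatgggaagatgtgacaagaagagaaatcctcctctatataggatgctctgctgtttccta
The window of ATF3 starts from the transcript that RefSeq places first, and other start sites were not searched.

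Of 23 measured NRF2 targets, 16 rose and 2 fell against DMSO (median 0.93, with bounds 0.70), and 12 were above and 4 below CPT. HMOX1, which breaks down heme, read 12.35 and 12.40 with BTZ against 6.99 and 6.98 with DMSO (41.9-fold, log2 change 5.39). Its SE of 1.10 is large although the samples of both groups lay close together, since the roscovitine samples differ. The DMSO values of HMOX1 lay not far above the lowest detected values of those arrays, 6.35 and 6.58. With CPT it stood at 10.26 and 10.39, 2.05 below BTZ (adjusted p = 0.133). GCLM and TXNRD1 were higher with BTZ than with either DMSO or CPT. GCLM, a subunit of the enzyme that starts glutathione synthesis, read 9.44 and 9.63 against 6.79 and 6.35, and TXNRD1 (thioredoxin reductase) 14.27 and 14.31 against 11.56 and 11.47 with DMSO and 11.45 and 11.59 with CPT. SRXN1 (sulfiredoxin) rose by 1.98. AKR1B10, an aldehyde reductase, was at least 7.15-fold higher than with DMSO, but stood at 9.33 and 9.28 with BTZ beside 9.83 and 9.94 with CPT (difference -0.58, adjusted p = 0.505). NQO1, a quinone reductase and classical NRF2 target, showed 12.04 and 11.94 against 12.09 and 12.13 (log2 change -0.12, adjusted p = 0.376), and TXN fell by 0.70. The antioxidant core was in 6 of 18 promoters of this list (33.3%) and in 7 of the 19 of ATF4 and CHOP targets (36.8%).

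Of 7 measured genes of metallothioneins and zinc transport, from 12 on the array, 2 rose and 4 fell against DMSO, and 1 was above and 3 below CPT. The median of -1.62 was -0.18 over all 12 genes without the detection filter and 0.36 over the 5 genes detected on all 4 arrays. The 4 falls include the 3 measured metallothioneins, which bind zinc and copper and resemble each other so closely that a probe may read relatives. MT1X fell from 11.28 and 11.14 to 8.65 and 8.50, MT2A from 10.57 and 11.07 to 8.69 and 8.61, and MT1F by 1.62. The calls of MT2A and MT1F were lost without DMSO replicate 2, and that of MT1F without either BTZ sample too. MT1X differed from CPT by -0.37 (adjusted p = 0.558). MTF1, the zinc sensor that drives these genes, rose by 1.45. The zinc exporter SLC30A1 read 8.82 and 8.36 with BTZ against 8.16 and 8.29 with DMSO, and 12.39 and 12.57 with CPT. SLC39A10, a zinc importer, was at least 4.51-fold lower with BTZ than with DMSO.

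Immediate early genes split by comparison. Of 19 measured, 10 rose and 1 fell against DMSO (median 0.92, with bounds 0.69), while 4 were higher and 14 lower than with CPT (median -1.24). JUN read 12.13 and 11.99 with BTZ, 8.14 and 8.47 with DMSO and 11.70 and 11.63 with CPT. FOSL1 was at least 2.65-fold higher than with DMSO and differed from CPT by -1.24. EGR1 was not detected on either BTZ array and stood at 11.36 and 11.41 with CPT. MYC fell from 12.24 and 12.19 with DMSO to 9.23 and 9.11 (log2 change -3.04, SE 0.15) and was 9.95 and 9.87 with CPT. DUSP1, a phosphatase that switches off stress kinases, rose by 2.93. Among genes of the NF-kB pathway and its targets, 9 of 12 rose against DMSO, and 5 were above and 2 below CPT (median 0.06). The chemokine CXCL8 (interleukin 8) was at 4.97 and 4.84 with DMSO, undetected, at 6.86 and 6.90 with CPT and at 12.51 and 12.63 with BTZ, at least 68.9-fold over DMSO and 5.69 above CPT on the log2 scale. NFKB2 rose by 2.30, and RELB was at least 2.87-fold higher than with DMSO and within 0.06 of CPT.

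In the BCL2 family, 7 of 12 measured genes rose and 1 fell against DMSO, but 2 were higher and 7 lower than with CPT, and 4 to 6 rose when any 1 of the DMSO or BTZ samples was left out. PMAIP1 (NOXA), a BH3-only protein that neutralizes MCL1, read 9.66 and 9.30 with BTZ, 8.06 and 7.87 with DMSO and 11.19 and 11.45 with CPT. BAX, the pore former, rose by 1.72 against DMSO but differed from CPT by -0.91, and the survival gene BCL2L1 (BCL-XL) fell by 1.11. MCL1 rose by 0.72, a call lost without BTZ replicate 1, and a second probe of it by 2.25. The first probe differed from CPT by -1.04. Death receptor genes were higher in 9 of 11 cases against DMSO, and in 5 to 6 when any 1 of the DMSO or BTZ samples was left out, and 5 were above and 3 below CPT. TNFRSF12A (Fn14), the TWEAK receptor, read 11.30 and 11.40 against 7.47 and 7.30 (15.6-fold, SE 0.12 on the log2 scale) and TNFRSF10B (DR5), a TRAIL receptor and CHOP target, 13.00 and 12.86 against 10.95 and 10.78. BIRC5 (survivin), which also acts in mitosis, fell by 2.94, and a second probe of it by 1.72.

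Targets of p53 separated BTZ from CPT. Of 20 measured, 12 rose and none fell against DMSO (median 0.96), and 6 to 7 rose when any 1 of the DMSO or BTZ samples was left out. None was higher and 10 were lower than with CPT (median -1.04). TP53I3 (PIG3), an oxidoreductase, read 6.94 and 7.15 with BTZ, 5.98 and 6.59 with DMSO and 13.38 and 13.32 with CPT. CDKN1A (p21) read 13.84 and 13.64 with BTZ against 11.10 and 11.08 with DMSO (log2 change 2.65, SE 0.51), and 14.94 and 14.90 with CPT. GADD45A rose 12.2-fold, from 9.83 and 9.74 to 13.39 and 13.39, and was at 12.93 and 13.06 with CPT. MDM2, the ubiquitin ligase of p53, was at least 8.19-fold higher than with DMSO, a call that was lost without DMSO replicate 1 or either BTZ sample.

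Autophagy genes rose in 16 of 23 cases and fell in 2 (median 0.99, with bounds 0.89), and 15 were above and 2 below CPT. GABARAPL1, one of the ATG8 proteins that coat the autophagosome, read 12.69 and 12.61 with BTZ, 8.29 and 7.92 with DMSO and 10.36 and 10.30 with CPT (23.3-fold over DMSO). MAP1LC3B, the gene of LC3B, rose 12.5-fold, and WIPI1, which marks the forming membrane, was at least 5.10-fold higher than with DMSO and detected on 1 CPT array. The related GABARAP went down, from 7.55 and 7.74 to a level not detected with BTZ, and was at least 1.75-fold lower. Lysosomal genes rose in 12 of 23 cases and fell in 3 against DMSO, and 5 were above and 10 below CPT. The protease gene CTSD rose by 2.80 (SE 0.27), while the membrane protein gene SCARB2 fell by 1.65.

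**Figure D3:**
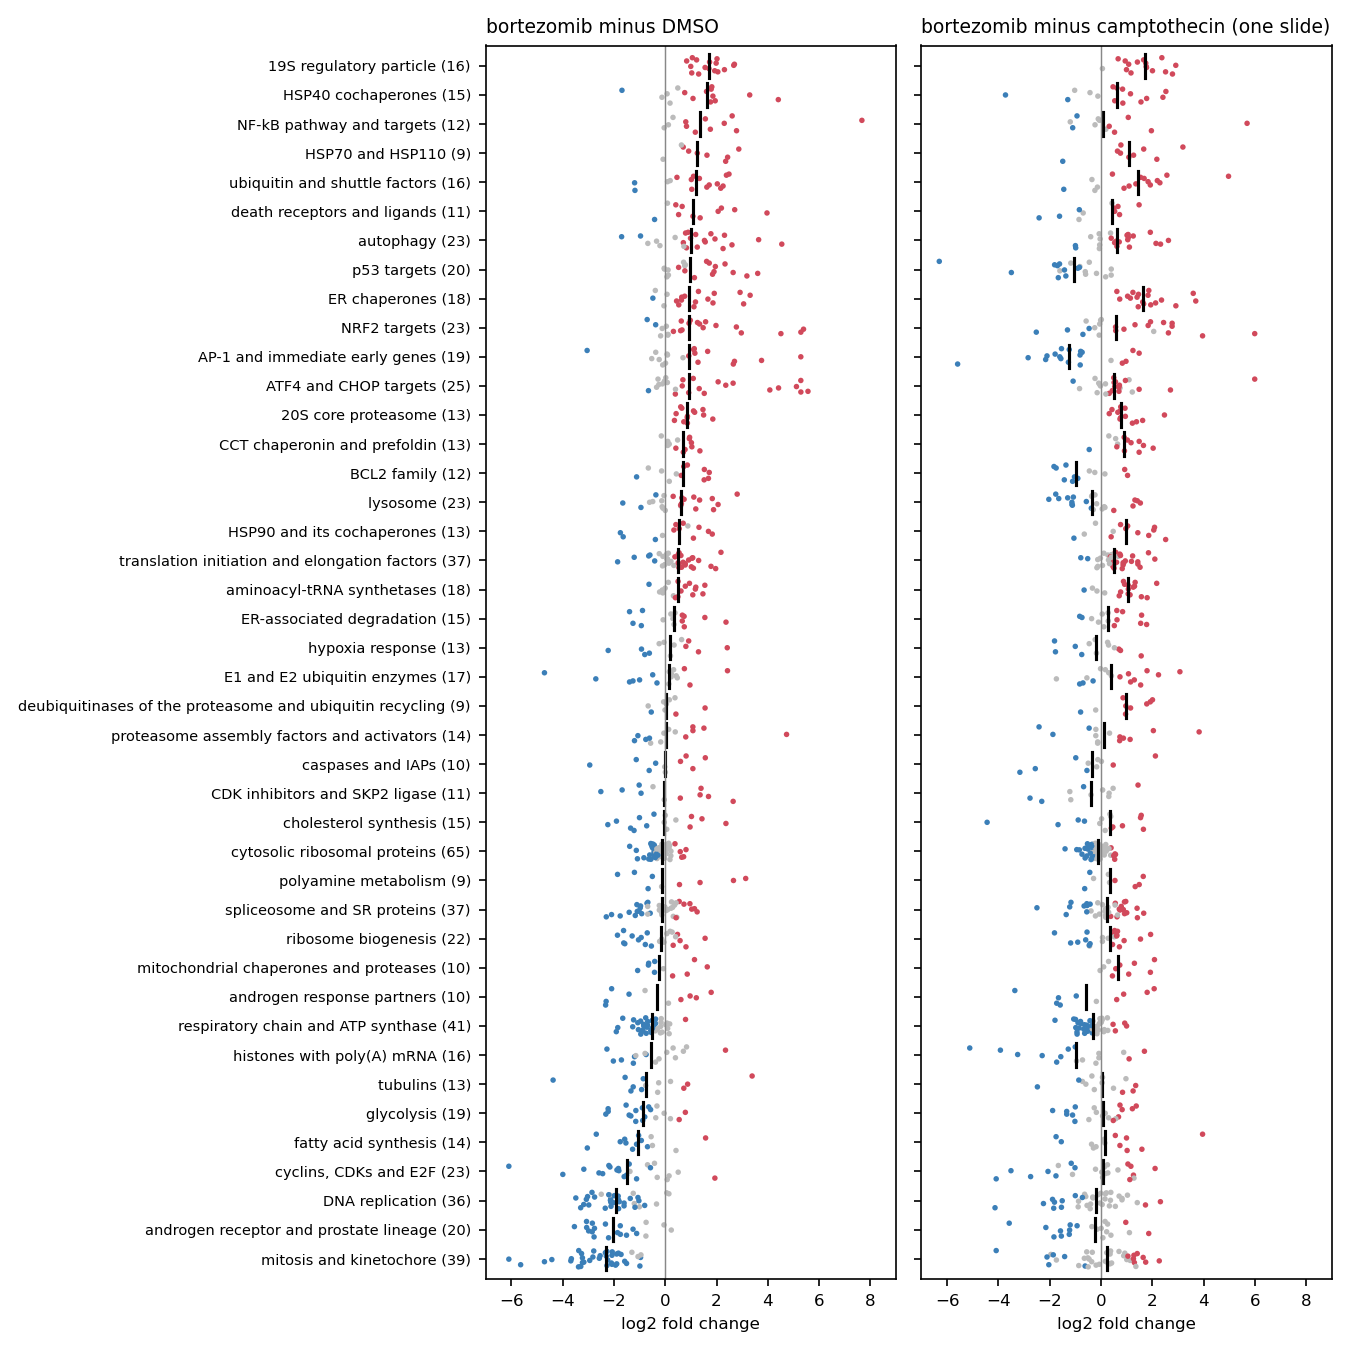
Log2 change of every measured gene (points) in each list with at least 9 measured genes, BTZ minus DMSO on the left and BTZ minus CPT on the right, with the list medians as black bars and the number of genes in brackets. Red points passed as higher, blue as lower and grey did not pass, and the mitosis list is at a median of -2.30 against DMSO and 0.22 against CPT.

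Genes of cell division had the lowest list median. Of 39 measured genes of mitosis and the kinetochore, 36 fell and none rose against DMSO (median -2.30, with bounds -2.19). Against CPT 6 were lower and 8 higher, with a median of 0.22. CDK1, the kinase that drives entry into mitosis, was at 12.68 and 12.68 with DMSO and at 10.56 and 10.79 with CPT, and was detected on neither BTZ array, at least 57.7-fold lower than with DMSO. AURKB, the kinase of the chromosomal passenger complex, was at least 16.5-fold lower and TOP2A, which untangles chromosomes, at least 14.5-fold lower. CDCA3 read 7.32 and 7.14 with BTZ against 11.14 and 10.68 with DMSO and 8.17 and 8.03 with CPT. NEK2, a kinase of the centrosome, fell by 3.37 and differed from CPT by -0.34 (adjusted p = 0.557). The tubulin gene TUBB fell from 13.14 and 13.29 to 8.76 and 8.93 (log2 change -4.37, SE 0.53) and was 9.69 and 9.45 with CPT, whereas TUBB3, the neuronal isotype, rose by 3.39 to 11.34 and 11.66.

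Replication genes followed. Of 36, 28 fell and none rose (median -1.91), and 2 were higher and 9 lower than with CPT. PCNA, the sliding clamp, stood out from CPT as well, at 9.23 and 9.32 with BTZ, 12.77 and 12.75 with DMSO and 13.43 and 13.38 with CPT. TK1 and FEN1, for nucleotide supply and flap removal, fell by 3.18 and 3.07. RRM2, the ribonucleotide reductase subunit, showed 7.49 and 7.51 against 9.91 and 10.08 but did not pass (SE 1.22, adjusted p = 0.107). Its roscovitine samples read 9.97 and 5.13, and their spread enters that SE. Of the cyclins, CDKs and E2F factors, 15 of 23 fell and 1 rose against DMSO, and 5 were above and 7 below CPT. CCND1 (cyclin D1), which carries cells into S phase, fell from 13.09 and 13.10 to a mean of 9.92 (SD 0.10, log2 change -3.17, SE 0.11) and was 12.61 and 12.73 with CPT. E2F2 was at least 7.44-fold lower, and E2F6, a repressor of the family, rose by 1.94. CDK4 fell by 1.12.

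The cells carry an SKP2 transgene, and which probe of SKP2 reads it was not tested. The brightest probe stood at 13.52 and 13.57 with DMSO and 15.02 and 14.86 with BTZ (log2 change 1.40, SE 0.24). The probes of SKP2 disagreed: a further probe changed by 1.12 and another by -2.43, and the mean over the probes did not pass. Its partner CKS1B fell from 11.36 and 10.96 to 8.66 and 8.64, and its substrate CDKN1B (p27) showed 8.40 and 8.60 against 8.91 and 9.04 (log2 change -0.48, adjusted p = 0.0744).

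**Figure D4:**
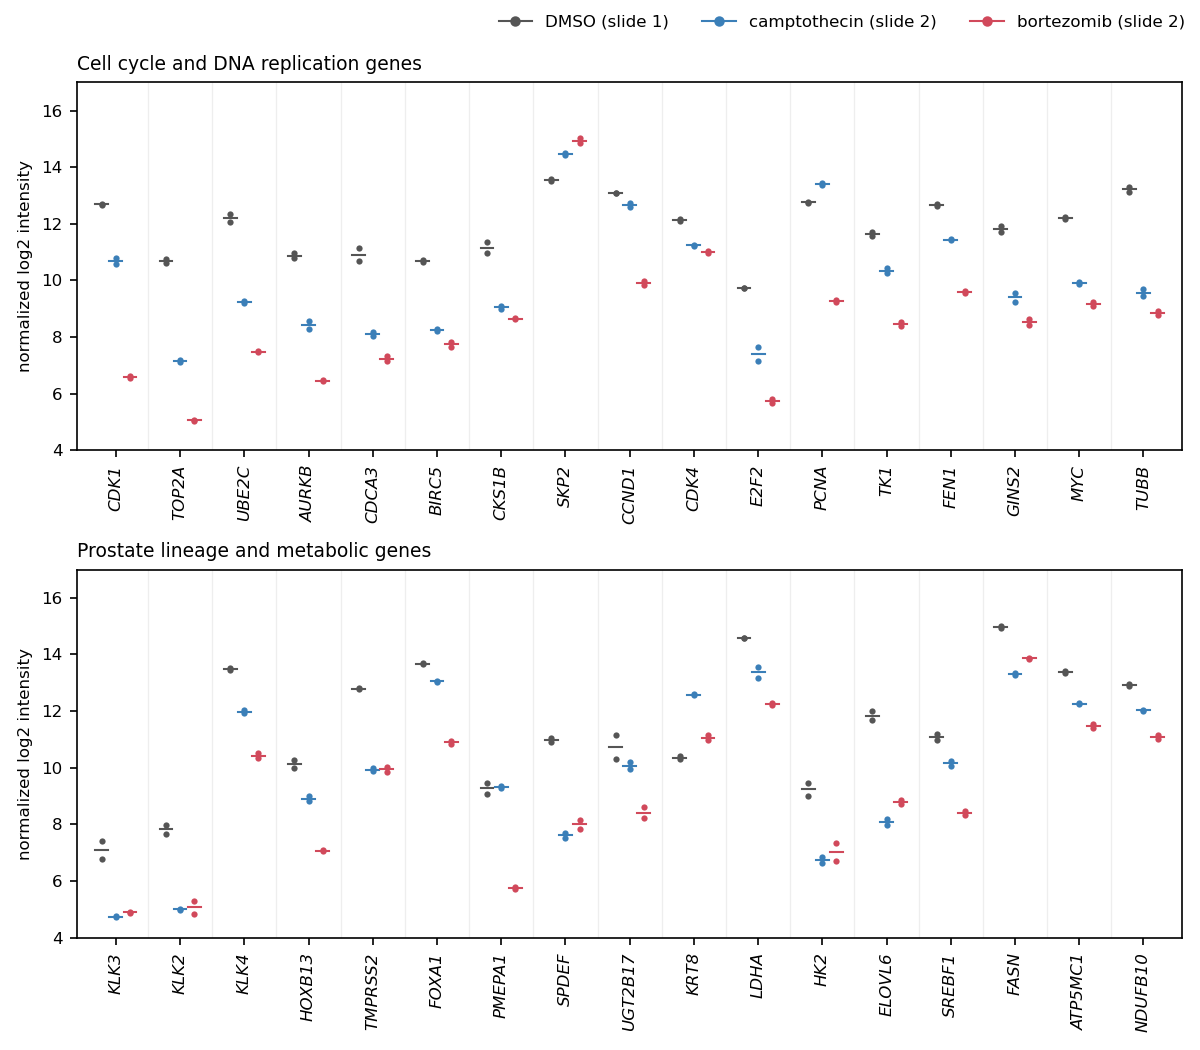
Normalized log2 intensity (vertical axis) of cell cycle and replication genes (upper panel) and of prostate lineage and metabolic genes (lower panel), with the 2 samples of each group as points and their mean as a bar. CDK1 lies at 12.68 and 12.68 with DMSO and at 6.63 and 6.55 with BTZ, and FOXA1 is lower with BTZ than in both other groups.

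Prostate genes fell with BTZ. Of 20 measured genes of the androgen receptor program and the prostate lineage, 16 fell and none rose against DMSO (median -2.03, with bounds -1.63), and 9 were lower and 2 higher than with CPT. FOXA1, the pioneer factor that opens chromatin for the androgen receptor, read 10.95 and 10.85 with BTZ, 13.65 and 13.70 with DMSO and 13.06 and 13.04 with CPT (log2 change against DMSO -2.77, SE 0.14). HOXB13, a lineage factor, fell from 10.28 and 9.99 to 7.06 and 7.09, and KLK4, a prostate protease, from 13.47 and 13.52 to 10.34 and 10.51. PMEPA1, an androgen-induced inhibitor of TGF-beta signaling, was at least 5.46-fold lower than with DMSO and was at 9.27 and 9.37 with CPT and detected on no BTZ array. TMPRSS2, a membrane protease, and SPDEF, an ETS factor, fell by 2.84 and 2.98 but did not differ from CPT past the threshold (0.01 and 0.38). KLK3, the gene of prostate-specific antigen, was dim. It read 6.78 and 7.42 with DMSO and was detected on neither BTZ nor CPT array. KLK3 was at least 1.21-fold lower with BTZ, and the call was lost without any 1 of the DMSO or BTZ samples. KRT8, a luminal keratin, rose by 0.72 (SE 0.13) and stood at 11.15 and 10.97 with BTZ and 12.56 and 12.59 with CPT. Fewer cells of a type and less RNA per cell cannot be told apart in such bulk samples.

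More metabolic genes fell than rose against DMSO, and against CPT the lists differed. Of 41 measured genes for respiratory complexes or the ATP synthase, 28 fell and 1 rose (median -0.52), and 7 fell at least 2-fold. Against CPT 4 were higher and 19 lower. ATP5MC1, a ring subunit of the synthase, fell by 1.91, with a second probe at -0.86, and NDUFB10, of complex I, from 12.97 and 12.90 to 11.14 and 11.03. Of 19 glycolysis genes, 13 fell and 2 rose, and 6 were above and 6 below CPT. LDHA, which makes lactate, fell from 14.57 and 14.57 to 12.30 and 12.21, while the aldolase gene ALDOA rose by 0.79. In fatty acid synthesis, 10 of 14 fell and 1 rose against DMSO, but 6 were above and 2 below CPT (median 0.14). ELOVL6, an elongase, fell by 3.04 to 8.73 and 8.87 and was 8.17 and 7.96 with CPT, and SREBF1, which drives the pathway, fell by 2.69. ME1, which supplies NADPH and is also an NRF2 target, rose by 1.57 and lay 3.96 above CPT. Of 15 cholesterol synthesis genes, 4 were higher and 7 lower than with DMSO, and 6 were above and 4 below CPT. Over all genes tested, 31.7% were higher and 32.8% lower than with DMSO. Against CPT these shares were 32.8% and 32.7%. SC5D rose by 2.37, and TM7SF2, a sterol reductase, fell by 2.24 from 11.22 and 10.77 and differed from CPT by -4.44. Of 9 polyamine genes, 4 rose and 4 fell against DMSO, 1 to 3 fell when any 1 of the DMSO or BTZ samples was left out, and 4 were above and 2 below CPT. SMOX and SAT1, which break polyamines down, were at least 5.55-fold higher and 2.66 higher on the log2 scale, and SRM, spermidine synthase, fell by 1.86. Neither SMOX nor SAT1 differed from CPT past the threshold (0.28 and 0.33).

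RNA processing and ribosome genes moved little by comparison. Of 65 cytosolic ribosomal protein genes, 21 fell and 5 rose (median -0.13), and 3 fell at least 2-fold. Over all genes tested 32.8% fell and 31.7% rose, so the falls lie near that share and the rises below it. Fewer were called lower when any 1 of the DMSO or BTZ samples was left out. Against CPT 5 were higher and 18 lower. Of 37 splicing genes, 14 fell and 7 rose against DMSO, and 4 to 6 rose when any 1 of the DMSO or BTZ samples was left out, whereas 14 were above and 9 below CPT. LSM2 and LSM4, of the ring that binds U6 RNA, fell by 2.30 and 2.09, and LSM2 differed from CPT by -2.50.

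Several of the largest changes belonged to none of these lists. The largest lower bounds after CRYAB and CXCL8 were those of BEST1, a chloride channel, at least 29.6-fold, and GCNT3, a mucin glycosyltransferase, at least 15.1-fold. Both were also above CPT, GCNT3 at 10.25 and 10.50 with BTZ against 5.84 and 6.22, undetected, with CPT. BLOC1S2 (at least 13.5-fold), the metalloprotease MMP10 (at least 11.1-fold) and the GTPase GBP2 (at least 10.9-fold) completed the 8 largest with DNAJB4. DHDDS, which makes the dolichol on which ER glycans are built, read 11.25 and 11.24 with BTZ, 7.41 and 7.40 with DMSO and 8.40 and 8.51 with CPT, a 14.3-fold rise with an SE of 0.13 on the log2 scale. Among the falls, the synaptotagmin gene SYT4 went from 12.67 and 13.09 to 8.73 and 8.79 but was 9.13 and 8.84 with CPT, and the nuclear protein gene PTMA from 11.90 and 11.67 to 7.80 and 7.98, with 10.04 and 10.14 under CPT. BCHE (butyrylcholinesterase), DDIT4L, SPIN4, PNKD and the tetraspanin CD9 fell by 3.82, 3.50, 3.46, 3.41 and 3.40, and each was also lower than with CPT. PNKD had a further probe at -1.51. NREP, CCNF, SLC25A10 and NFE2L3 were detected in both DMSO samples and in neither BTZ sample, with lower bounds of 14.8-, 12.7-, 12.7- and 8.16-fold. Over all genes, 298 were detected in both BTZ samples and in neither DMSO sample and passed as higher, and 694 passed as lower that were detected on both DMSO arrays and on no BTZ array.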

How the data were processed

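RNA of 12 arrays was measured on Illumina bead chips with 24526 probes each. The authors' BeadStation software gave each probe 1 intensity per array, deposited without normalization or background subtraction. Per the file headers each intensity has a detection p-value beside it. The authors also deposited log2 values, which rank the probes of each array as its intensities do and were used as an alternative. Tools for normalizing these log2 values are not given in the sources used here.

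The neqc routine corrected background, normalized by quantiles and took log2 (limma 3.58.1, R 4.3.3, offset 16). Arrays had mean intensities of 473 to 802, and their number limits the precision. Kept were 11111 probes that all arrays of some group detected at p under 0.01. Of all probes 21834 had 1 gene and 2692 none named here, and gene symbols were brought up to date with the RefSeq table of GRCh38.p14 (99.9% of gene identifiers matched). The brightest probe stood for each of 1141 genes with several. Technical arrays of SMIP004 were averaged, and lmFit and eBayes were run on 10 samples (5 residual and 2.95 prior degrees of freedom), with Benjamini-Hochberg adjustment over 8783 genes and a call at an adjusted p under 0.05. A gene detected on no array of a group has only a bound, set by the dimmest probe detected on those arrays. Since each group lies on 1 slide, no slide term could be fitted.

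Gene lists were described by counts and medians. The genes named are the 12 largest rises and falls among genes detected on all 4 arrays, the 8 largest bounds each way, up to 6 of the largest changes per list and up to 2 against its majority, and a set of genes chosen for their role. Some genes of the last kind, and a few named in the lists for contrast, were added with their values known. The comparison, the lists and this rule were chosen with earlier results of these data known. Alternatives changed the normalization, filter, samples, moderation, probe choice and threshold, added a replicate block, and left out each sample. The model was also run on simulated data, whose noise was drawn from the spread of the DMSO and BTZ samples only. The simulated data therefore do not cover the wider spread of the roscovitine samples. Plots were drawn with matplotlib 3.10.9 in Python 3.11.15.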

Additional observations from a re-analysis of the deposited data

How the results depend on the processing

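The count of 5664 genes called between BTZ and DMSO was 5674 with the deposited log2 values, 6366 without the detection filter, 4203 among genes detected on all 4 arrays, 6835 without the roscovitine samples and 6724 with only the DMSO and BTZ samples. Leaving out single samples gave 4616 to 6835. At the thresholds of the methods, at least 2-fold and an unadjusted p of 0.05 or less, 3275 genes passed, 1530 higher and 1745 lower, and against CPT 3466, 1659 higher and 1807 lower. Among genes detected on all 4 arrays 1819 were lower than with CPT, against 2875. With intensities scaled to 1 median, 2060 genes were higher and 3378 lower than with DMSO, 37.9% of the calls higher against 49.2%, at a median of -0.18 over all genes. Under that scaling PSMB1, PSMA4, NGLY1, ATF4, MCL1 and the undetected KRT18 no longer passed, and CDKN1B and RRM2 passed. With the mean of CPT and roscovitine on slide 2 in place of DMSO, 5858 genes were called, among them 2113 of the 2787 genes higher and 2011 of the 2877 lower than with DMSO. There 10 named genes changed direction: SIL1 (0.16), SLC30A1 (-2.41), PMAIP1 (-0.25), MCL1 (-0.30), BAX (-0.33), CDKN1A (-0.55), TP53I3 (-5.08), RRM2 (0.68), KRT8 (-0.39) and CD68 (-0.10), of which SLC30A1, TP53I3 and KRT8 passed there. Under the alternatives that kept DMSO as the reference, no named gene that passed changed direction. The replicate block gave 5573 genes, 2749 higher and 2824 lower, and the replicate numbers did not pair the samples: the correlation of replicate differences between groups ran from -0.19 to 0.09. Roscovitine replicates, which differed at least 2-fold in 1215 genes, widen the errors of the model. With 2 samples per group, dim genes have only bounds.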

Other observations

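Of 16 measured genes listed as histone genes with poly(A) mRNA, 1 rose and 6 fell against DMSO, and 2 were above and 8 below CPT. Whether each of these mRNAs carries a poly(A) tail was not tested. H4C8 was the rise, from 7.66 and 7.10 to 9.74 and 9.72, and it stood at 9.75 and 9.88 with CPT. Of 10 further androgen response genes, 4 rose and 4 fell against DMSO, and 4 were above and 5 below CPT. UGT2B17, which inactivates androgens by glucuronidation, fell from 11.17 and 10.30 to 8.60 and 8.21, and NCOA4, which carries ferritin to the lysosome, rose from 12.97 and 12.99 to 13.96 and 13.94, with 14.08 and 14.19 under CPT. Of 13 hypoxia genes, 4 rose and 4 fell against DMSO, and 3 were above and 4 below CPT. Over all genes tested, 31.7% were higher and 32.8% lower than with DMSO, and the hypoxia counts lie near these shares. Of 22 ribosome biogenesis genes, 5 rose and 10 fell against DMSO (2 to 3 rose when any 1 of the DMSO or BTZ samples was left out), and 10 were above and 7 below CPT. Of 9 deubiquitinases of the proteasome and of ubiquitin recycling, 2 rose and 1 fell against DMSO, while 7 were above and 1 below CPT.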
